A study of Mus musculus with 11 samples.

Results

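The set described here holds 9 genes, the engineered drivers Apc and Trp53 and 7 transcriptional targets of p53, namely Cdkn1a, Mdm2, Ccng1, Bax, Eda2r, Phlda3 and Zmat3. They were listed by gene name out of the 23224 genes of the deposited table, with earlier results of these data known. Against naive organoids, Phlda3 was more than 5-fold higher (5.75-fold in the C57Bl6 and 5.07-fold in the RAG2KO tumour group). Most of the other measured targets did not pass the test, and the targets did not move together.

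The 11 libraries are of polyadenylated RNA from mouse colon cancer organoids of the AKP genotype, a genotype that alters Apc and Trp53 among other genes. Organoids were re-grown from primary tumours that had formed after colonoscopic transplantation into immunocompetent C57Bl6 mice (3 libraries) or immunodeficient RAG2KO mice (3 libraries), which lack mature T and B cells. Naive AKP organoids with a lentiviral SOX17 overexpression construct (SOX17OE) gave 1 constitutive and 1 doxycycline-inducible library, and untransplanted naive AKP organoids gave 3. The re-derived cultures had been passaged until they held cancer cells alone, per the design text. All 11 libraries carry the AKP genotype, and no library of unaltered epithelium was analysed here, so the levels of Apc and Trp53 cannot check the genotype. The alleles, the recipients' age and whether doxycycline was given are not stated in the sources used here. A SOX17OE line has no replicate, and its test assumes that it varies like the groups of 3.

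The p53 protein, encoded by Trp53 in the mouse, is a transcription factor that DNA damage and other stress stabilise. It binds a consensus of paired decamers near its targets and raises the expression of genes for cell cycle arrest, DNA repair and apoptosis, and of Mdm2, which in turn marks p53 for degradation. The APC protein is a part of the complex that marks beta-catenin for destruction. In the intestinal epithelium loss of APC turns on Wnt target genes, and loss of p53 function is a later and frequent step of colorectal cancer.

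Levels are given as CPM, counts relative to a library size scaled by the trimmed mean of M values (TMM). They compare 1 gene between libraries and not 1 gene with another, since gene length was not used. Library totals were 14109182 to 22154456 expected counts. Sox17 had 12.4 to 74.3 CPM in the C57Bl6, 15.4 to 24.4 in the RAG2KO, 72.7 in the constitutive, 4.78 in the inducible and 0.0438 to 0.214 in the naive libraries. The share of counts on Rn45s, a precursor of ribosomal RNA, was 2.21 to 3.77% in the C57Bl6, 6.56 to 8.54% in the RAG2KO, 6.39% in the constitutive, 3.71% in the inducible and 2.42 to 4.99% in the naive libraries. All RAG2KO libraries lay above all C57Bl6 and naive libraries in that share, so the Rn45s share and the RAG2KO group cannot be told apart in this design. The summed level of the 10 epithelial markers was 9384 to 11932 CPM in the C57Bl6, 10486 to 11184 in the RAG2KO, 6690 in the constitutive, 9332 in the inducible and 10923 to 12723 in the naive libraries. The 14 immune cell markers summed to at most 12.9 CPM in the C57Bl6, 29.3 in the RAG2KO, 16.02 in the constitutive, 17.7 in the inducible and 41.4 in the naive libraries. S100a8 and Cd68 made up most of the sum in each library, with S100a8 at 30.2 CPM in naive replicate 3 and Cd68 at 14.5 in the constitutive line. Nkg7, a marker of cytotoxic lymphocytes, had 0 counts in all 11. The 10 fibroblast markers summed to 0.996 to 2.58 CPM in the C57Bl6, 0.873 to 10.2 in the RAG2KO, 6.80 in the constitutive, 0.699 in the inducible and 0.357 to 0.620 in the naive libraries. Col3a1 made up most of the 2 largest sums, at 7.07 CPM in RAG2KO replicate 2 and 5.24 in the constitutive line. Thy1 was at 0 in each C57Bl6, RAG2KO and SOX17OE library. The 8 endothelial markers summed to 1.94 to 3.74 CPM in the C57Bl6, 1.48 to 4.96 in the RAG2KO, 36.1 in the constitutive, 7.11 in the inducible and 1.38 to 1.72 in the naive libraries. In the constitutive line Tek had 26.05, Vwf 6.51 and Cdh5 3.29 CPM, while Pecam1 had 0.115 and Kdr 0.0576. Emcn and Cldn5 had 0 counts there.

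RefSeq promoter windows of 300 bases (250 before and 50 after the start, GRCm38.p6) were matched by symbol for 7 of the 9 genes, all but Apc and Zmat3. They were searched for the p53 consensus decamer, a palindromic pattern that reads the same on both strands. The decamer was in the windows of 5 of the 7. It was in 8.36% of all 32851 windows, and 9.55% of 27025 genes had a window with it. The stretches are shown because they hold this decamer near the starts of genes whose levels are given next. The consensus that p53 binds is a pair of decamers, and the Bax, Ccng1, Mdm2 and Trp53 stretches hold 1 exact match each and not the pair. They are written 5′ to 3′ on the gene's strand, and capitals mark the decamer.
Bax: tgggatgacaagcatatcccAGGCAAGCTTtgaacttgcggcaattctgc
Ccng1: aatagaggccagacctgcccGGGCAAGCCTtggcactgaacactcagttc
Cdkn1a: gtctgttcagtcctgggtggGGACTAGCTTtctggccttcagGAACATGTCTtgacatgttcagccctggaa
Mdm2: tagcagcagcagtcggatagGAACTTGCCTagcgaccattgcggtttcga
Trp53: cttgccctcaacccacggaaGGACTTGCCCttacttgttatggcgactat
The Bax stretch is at chr7:45467070-45467119 on the minus strand, and its decamer spans 201 to 192 bases before the start. The Ccng1 stretch is at chr11:40755442-40755491 on the minus strand, with the decamer 185 to 176 bases before the start. The Cdkn1a stretch is at chr17:29090886-29090957 on the plus strand and holds 2 decamers, with other bases between them. They lie inside the window, from 73 to 42 bases before its transcription start. Only exact matches are in capitals, and the bases directly after the second decamer miss the pattern at their first base alone. Cdkn1a has another window, of another start, at chr17:29093519-29093818, which holds 0 matches. The Mdm2 stretch is at chr10:117710915-117710964 on the minus strand, with the decamer 186 to 177 bases before the start. The Trp53 stretch is at chr11:69580264-69580313 on the plus strand, with the decamer 75 to 66 bases before the start. The windows of Eda2r and Phlda3 hold no match to these letters. A match is a description of the letters and not a bound site, and binding was not measured.

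Trp53 encodes p53 itself. It had 2.52, 2.58 and 2.27 CPM in the C57Bl6, 4.38, 2.86 and 3.18 in the RAG2KO, 2.65 in the constitutive, 2.97 in the inducible and 2.07, 2.76 and 2.72 in the naive libraries. These rest on 29 to 65 counts a library. The C57Bl6 and naive ranges overlap, and the lowest RAG2KO library lay just above the highest naive one. The log2 fold change was -0.04 (SE 0.30, adjusted p = 0.949) for C57Bl6 against naive and 0.46 (SE 0.30, adjusted p = 0.265) for RAG2KO against naive, in edgeR's quasi-likelihood test with Benjamini-Hochberg adjustment over all 13720 tested genes, which is also the test behind every adjusted p below. The C57Bl6 group minus the RAG2KO group was -0.50 (SE 0.30, adjusted p = 0.236). Neither SOX17OE line passed, at 0.07 (SE 0.42) for the constitutive and 0.24 (SE 0.41) for the inducible line. At this depth a Trp53 difference of the size of these standard errors was not detectable. A count gives no information on whether the transcripts encode working p53.

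Apc had 100.5, 57.5 and 84.0 CPM in the C57Bl6, 54.3, 57.9 and 59.5 in the RAG2KO, 71.2 in the constitutive, 65.6 in the inducible and 81.9, 79.5 and 86.1 in the naive libraries. All 3 RAG2KO libraries and both SOX17OE lines lay below every naive library, while the C57Bl6 libraries spread from below to above them. Apc averaged 57.2 ± 2.69 CPM in the RAG2KO group and 82.5 ± 3.34 in the naive group (SD, n = 3 each), a log2 fold change of -0.53 (SE 0.18, adjusted p = 0.0485). That call passed narrowly and was lost in 12 of 22 alternatives: among them were leaving out any naive library (adjusted p = 0.0936 to 0.114), any RAG2KO library (0.0844 to 0.111) or C57Bl6 replicate 3 (0.0664), and the Rn45s share as a covariate (-0.90, adjusted p = 0.208). The C57Bl6 group stood at -0.03 against naive (SE 0.18, adjusted p = 0.929) and at 0.50 against the RAG2KO group (SE 0.18, adjusted p = 0.0673). Without C57Bl6 replicate 2 the C57Bl6 group stood at 0.69 against the RAG2KO group, with an adjusted p of 0.00983.

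Apc lies on chromosome 18, and its level was set beside the median of the tested genes there, a comparison chosen after the values were seen. Relative to the naive mean, Apc was at a log2 difference of 0.28 in C57Bl6 replicate 1, where the chromosome 18 median was 0.23. It was at -0.52 in C57Bl6 replicate 2 with a chromosome median of -0.01, and at -0.60, -0.51 and -0.47 in RAG2KO replicates 1 to 3 with chromosome medians of 0.03, 0.07 and 0.02. The chromosome median was thus raised with Apc in C57Bl6 replicate 1 and stayed near 0 in the libraries where Apc was lowest. The same library also stood apart on chromosome 10, which holds Mdm2, as given with that gene. Such shifts were not particular to these chromosomes: in that library the median was -0.22 on chromosome 5 and 0.14 on chromosome 6. It was -0.75 on chromosome 13 in C57Bl6 replicate 2 and 0.32 on chromosome 6 in RAG2KO replicate 2.

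**Figure D1:**
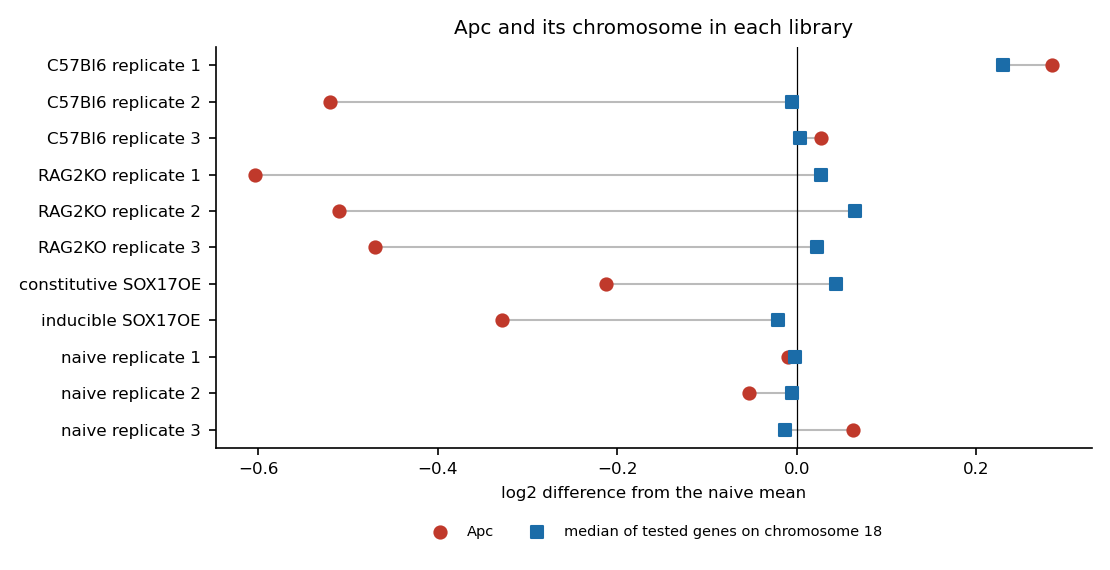
Log2 difference from the naive mean of Apc (circles) and the median of the tested chromosome 18 genes (squares) in each library. Circle and square lie together in C57Bl6 replicate 1, at 0.28 and 0.23, and apart in the RAG2KO libraries.

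Cdkn1a encodes p21, a cyclin-dependent kinase inhibitor and the best known arrest gene under p53. It had 89.1, 48.1 and 38.4 CPM in the C57Bl6, 51.3, 114.7 and 87.3 in the RAG2KO, 87.4 in the constitutive, 30.4 in the inducible and 88.5, 86.9 and 153.1 in the naive libraries. The groups overlapped except for the inducible line, which lay below every other library, and libraries of the same tumour group differed by more than 2-fold. The log2 fold change was -0.90 (SE 0.38, adjusted p = 0.148) for C57Bl6, -0.38 (SE 0.38, adjusted p = 0.489) for RAG2KO, -0.33 (SE 0.55, adjusted p = 0.744) for the constitutive and -1.85 (SE 0.61, adjusted p = 0.166) for the inducible line against naive. Cdkn1a passed for C57Bl6 without C57Bl6 replicate 1 (-1.34, adjusted p = 0.0382) and by limma voom (-0.94, adjusted p = 0.0265), and for the inducible line by DESeq2 (-1.85, adjusted p = 0.0151). C57Bl6 minus RAG2KO was -0.53 (SE 0.38, adjusted p = 0.335).

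Mdm2 encodes the ubiquitin ligase that marks p53 for degradation, and Ccng1 encodes cyclin G1, which brings a phosphatase to Mdm2. Mdm2 had 43.3, 53.7 and 54.0 CPM in the C57Bl6, 47.2, 49.2 and 39.0 in the RAG2KO, 60.2 in the constitutive, 43.3 in the inducible and 56.3, 58.4 and 66.8 in the naive libraries. Every tumour library lay below every naive one. In C57Bl6 replicate 1, the lowest C57Bl6 library for Mdm2, the log2 difference from the naive mean was -0.48, and the median of the tested chromosome 10 genes was also low there, at -0.15. In the other tumour libraries that median lay between -0.04 and 0.03. The part of the chromosome shift in the Mdm2 level was not tested. Against naive, Mdm2 was at -0.42 in the RAG2KO group (SE 0.14, adjusted p = 0.0481) and at -0.26 in the C57Bl6 group (SE 0.14, adjusted p = 0.24). The RAG2KO call was lost in 15 of 22 alternatives, without any naive (adjusted p = 0.0629 to 0.143) or RAG2KO library (0.0657 to 0.141), without C57Bl6 replicate 2 (0.0523) or 3 (0.0627) and with the Rn45s covariate (-0.06, adjusted p = 0.928) among them. Ccng1 had 49.7, 42.02 and 36.4 CPM in the C57Bl6, 36.5, 42.4 and 27.1 in the RAG2KO, 26.9 in the constitutive, 35.7 in the inducible and 42.3, 41.7 and 37.9 in the naive libraries. Ccng1 overlapped between the tumour and naive groups, and both lines lay below naive. Its largest fitted difference from naive, -0.60 in the constitutive line (SE 0.26), did not pass (adjusted p = 0.157).

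Bax encodes a pore-forming protein of mitochondrial apoptosis, and Eda2r a receptor of the tumour necrosis factor receptor superfamily. Bax had 98.1, 97.8 and 94.3 CPM in the C57Bl6, 123.3, 104.8 and 115.8 in the RAG2KO, 117.0 in the constitutive, 123.1 in the inducible and 108.9, 105.7 and 96.6 in the naive libraries. The C57Bl6 libraries lay below all RAG2KO libraries, and neither group was clear of naive. C57Bl6 minus RAG2KO was -0.24 (SE 0.11, adjusted p = 0.123), which passed by DESeq2 (-0.26, adjusted p = 0.0435) and with upper quartile scaling (-0.35, adjusted p = 0.0476). Eda2r had too few counts to be tested: 0, 0 and 2 in the C57Bl6, 0, 1 and 0 in the RAG2KO, 3 in the constitutive, 5 in the inducible and 1, 0 and 3 in the naive libraries. Over each group's summed depth that is 0.0353 CPM in the C57Bl6, 0.0208 in the RAG2KO and 0.0692 in the naive libraries, with exact 95% Poisson intervals of 0.00427 to 0.127, 0.000527 to 0.116 and 0.0189 to 0.177. Those intervals overlap, cover counting error only and do not show that Eda2r is absent. The single libraries of the constitutive line (0.173 CPM, 0.0357 to 0.505) and the inducible line (0.291 CPM, 0.0946 to 0.680) also overlap naive.

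Phlda3 encodes a small pleckstrin homology domain protein that keeps the kinase AKT from the membrane. It had 19.5, 26.1 and 21.2 CPM in the C57Bl6, 13.95, 28.1 and 16.8 in the RAG2KO, 22.5 in the constitutive, 7.05 in the inducible and 4.36, 3.90 and 3.38 in the naive libraries. All 8 other libraries lay above all 3 naive libraries. Phlda3 averaged 22.3 ± 3.42 CPM in the C57Bl6, 19.6 ± 7.51 in the RAG2KO and 3.88 ± 0.488 in the naive group (SD, n = 3 each). Phlda3 rose in both tumour groups, by 2.52 (SE 0.27, adjusted p = 4.01e-04) in C57Bl6 and 2.34 (SE 0.27, adjusted p = 5.16e-04) in RAG2KO on the log2 scale, and by 2.54 in the constitutive line (SE 0.33, adjusted p = 0.00234). In the inducible line it was at 0.87 (SE 0.36, adjusted p = 0.243).

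By group level Phlda3 was highest in the constitutive line, the C57Bl6 group and the RAG2KO group, which overlapped, then in the inducible line and lowest in naive. The single library of the constitutive line (22.5 CPM) lay within the C57Bl6 range, the highest single library was RAG2KO replicate 2, and no order among these is claimed. C57Bl6 and RAG2KO, the tumour groups, differed by 0.18 (SE 0.25, adjusted p = 0.624), less than the spread between the libraries. The constitutive line minus the inducible line was 1.67 (SE 0.45, adjusted p = 0.206), a comparison added after the values were seen, which passed by DESeq2 (adjusted p = 0.0441). The mean of the lines against naive was 1.70 (SE 0.29, adjusted p = 0.00913), and it rested on the constitutive line, without which the value was 0.87 (adjusted p = 0.243). The C57Bl6 call held in 22 of 22 alternatives. The RAG2KO call held in 21 of 22 and the constitutive call in 18 of 19, each lost only with the Rn45s share as a covariate (2.18, adjusted p = 0.1, and 2.41, adjusted p = 0.058). That covariate called 148 of all 13720 tested genes in RAG2KO and 195 in the constitutive line against naive. The comparisons with naive share the same 3 naive libraries, so the rise in each is not independent of the others.

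**Figure D2:**
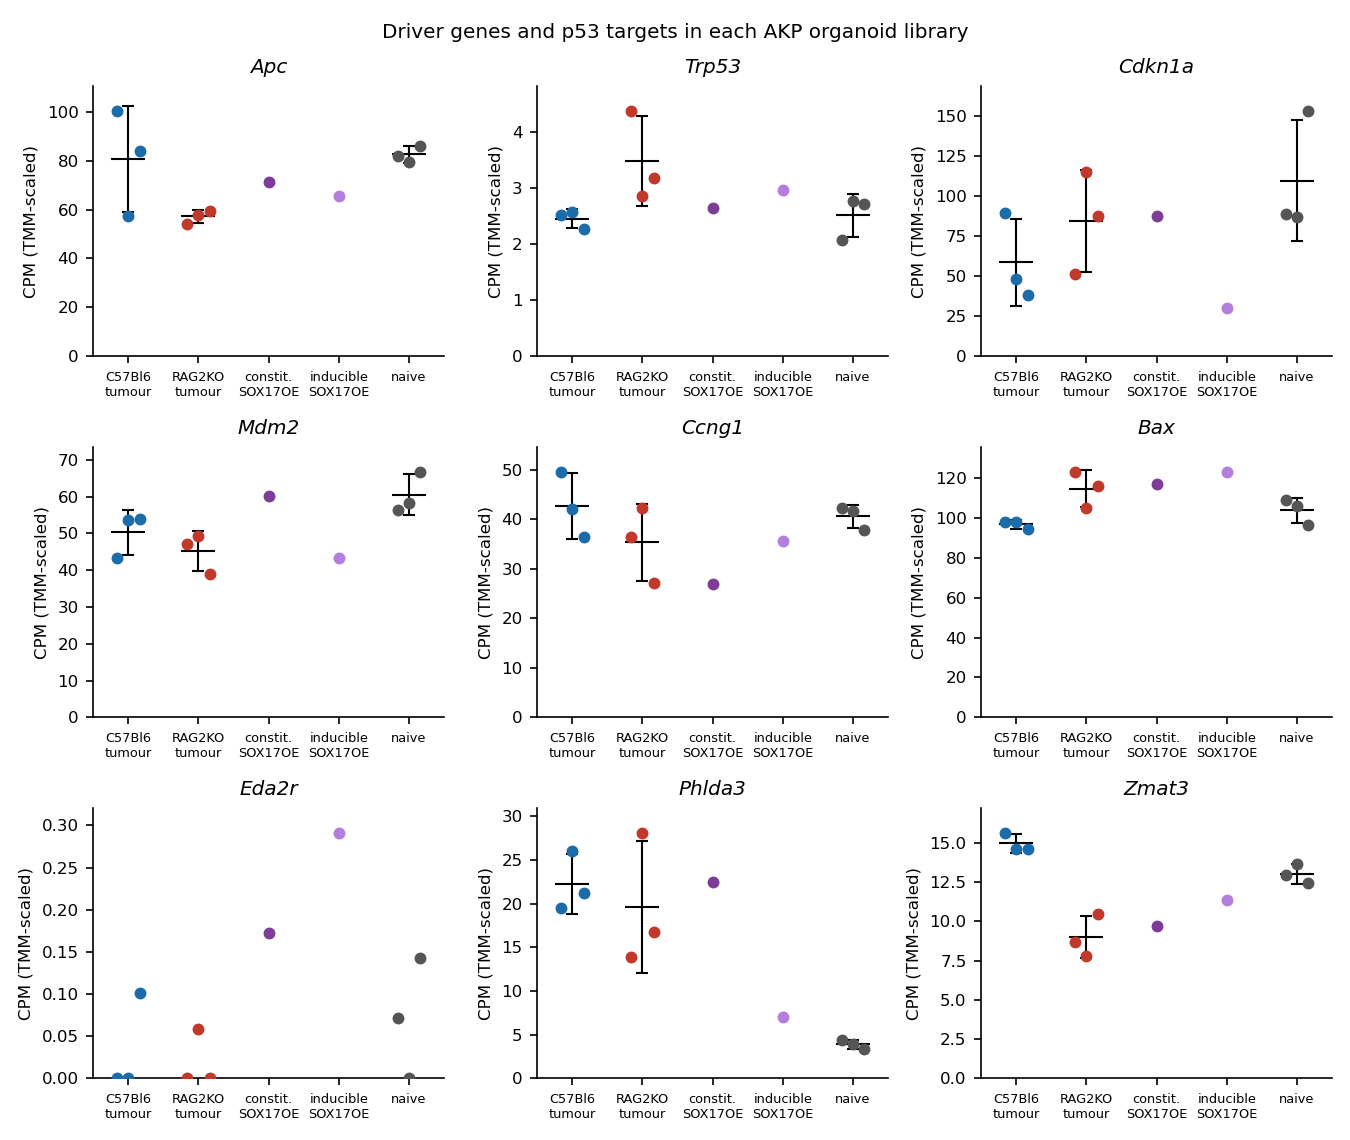
TMM-scaled CPM of the 9 genes in each library, with 1 point per library and bars for the mean and SD of the groups of 3 (none for Eda2r, which had 0 to 5 counts). Phlda3 lies at 13.95 to 28.1 CPM in the tumour libraries and at 3.38 to 4.36 CPM in naive, and between tumour and naive libraries the other genes overlap or differ less.

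Zmat3 encodes a zinc finger protein that binds RNA. It had 15.7, 14.6 and 14.6 CPM in the C57Bl6, 8.69, 7.82 and 10.5 in the RAG2KO, 9.68 in the constitutive, 11.4 in the inducible and 12.9, 13.7 and 12.4 in the naive libraries. The C57Bl6 libraries lay above and the RAG2KO libraries below every naive library. Zmat3 alone of the 8 tested genes passed between recipients, higher by 0.74 in the C57Bl6 group (SE 0.16, adjusted p = 0.012), with means of 14.99 ± 0.590 CPM in C57Bl6 and 8.999 ± 1.35 in RAG2KO (SD, n = 3 each). That call held in 21 of 22 alternatives and was lost with the Rn45s covariate (0.88, adjusted p = 0.559). With that covariate 2 of all 13720 tested genes were called between recipients, against 3295 without it, so the loss was not particular to Zmat3. Against naive, Zmat3 was at 0.20 in C57Bl6 (SE 0.16, adjusted p = 0.434) and fell by 0.53 in RAG2KO (SE 0.16, adjusted p = 0.0335). The fall in RAG2KO was lost in 10 of 22 alternatives, among them without any naive library (adjusted p = 0.0642 to 0.12), without RAG2KO replicate 1 (0.0765) or 2 (0.115) and with the Rn45s covariate (0.326).

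Counted over the set, the C57Bl6 comparison with naive called 1 of 8 tested genes, Phlda3, where 15.3% of all tested genes were called (9.5% higher and 5.85% lower). The RAG2KO comparison called 4 of 8, with Phlda3 higher and Apc, Mdm2 and Zmat3 lower, against 29.2% of all tested genes (16% higher and 13.3% lower). That count ranged from 1 to 4 when single libraries were left out, and calls over all tested genes from 2041 to 4184. C57Bl6 against RAG2KO called Zmat3 alone, against 24% of all tested genes (12.2% higher and 11.8% lower). The mean of the SOX17OE lines and the constitutive line each called Phlda3 alone, against 12.7% (6.77% higher and 5.92% lower) and 12.3% (7.23% higher and 5.04% lower) of all tested genes. The inducible line called 0 of 8 by edgeR, against 0.656% of all tested genes (0.525% higher and 0.131% lower), with 3 at an unadjusted p under 0.05, 1 by DESeq2 and 0 by limma voom. The constitutive line against the inducible line called 0 of 8 by edgeR, against 0.284% of all tested genes (0.0802% higher and 0.204% lower), with 1 at an unadjusted p under 0.05, 1 by DESeq2 and 0 by limma voom. The share of the 8 genes called was above that of all genes in RAG2KO, where the count also moved most with libraries left out, and close to or below it in the other comparisons.

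The median log2 fold change of the 8 genes was -0.04 in C57Bl6, -0.29 in RAG2KO, -0.11 in the constitutive and -0.19 in the inducible line against naive. The median of all tested genes lay at 0.02, 0.02, 0.00 and 0 in the same comparisons. In these bulk libraries, fewer cells that express a gene and less RNA per cell cannot be told apart.

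**Figure D3:**
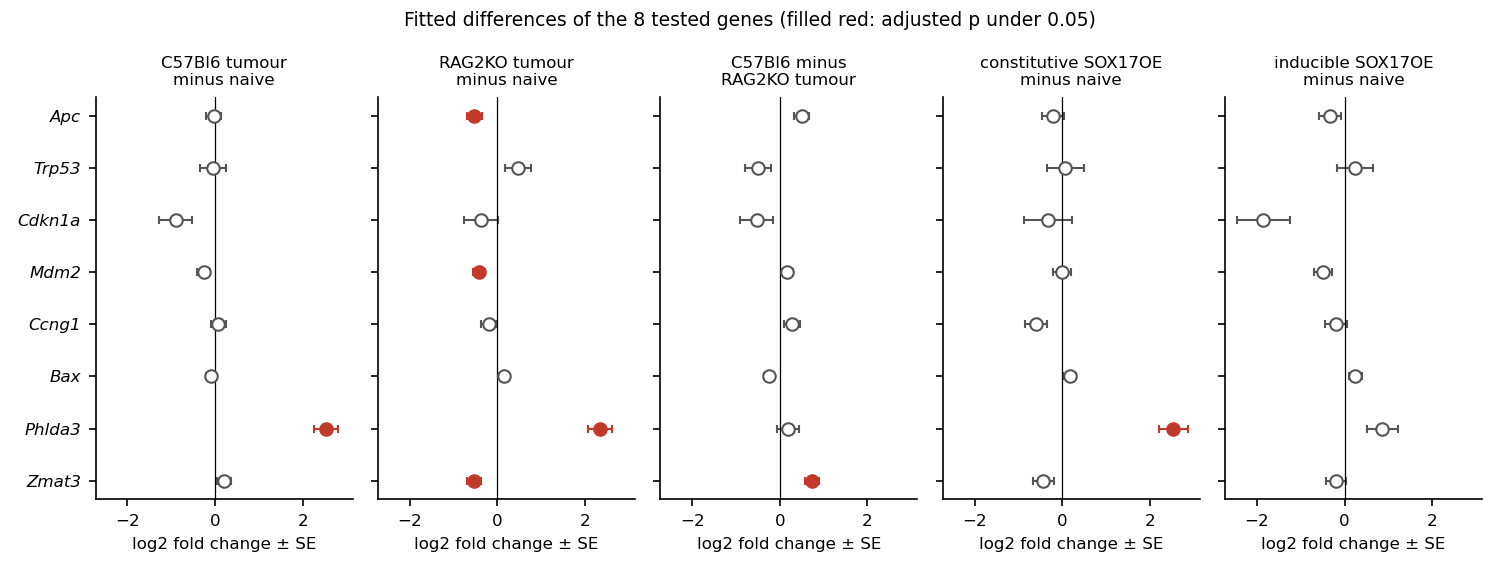
Fitted log2 fold changes with standard errors of the 8 tested genes in 5 comparisons, filled red at an adjusted p under 0.05. Phlda3 stands at 2.52, 2.34 and 2.54 in the C57Bl6, RAG2KO and constitutive comparisons with naive, and the other called genes lie within 0.74 of 0.

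A wider list of 42 other known p53 targets gave 41 tested genes, and they too went in both directions. In C57Bl6 against naive 3 rose and 3 fell, 14.6% of the list against 15.3% of all tested genes, with a median log2 fold change of 0.09. The count was 1 without naive replicate 1 or 2, 3 without naive replicate 3 and 2 without C57Bl6 replicate 3. Calls over all tested genes fell there too, from 2106 to 1096, 1030, 1462 and 1514 in that order. The count was 11 by DESeq2 and 17 by limma voom, where 2751 and 4086 of all 13720 tested genes were called. Sulf2, which encodes an extracellular heparan sulfate sulfatase, rose to 108.8 ± 39.3 CPM in C57Bl6, against 37.8 ± 5.62 in naive (log2 fold change 1.52, SE 0.28, adjusted p = 0.00577). In RAG2KO against naive 5 rose and 3 fell (median 0.02), 19.5% of the list against 29.2% of all tested genes, with 3 called without naive replicate 2 and 5 without naive replicate 3. Ephx1, an epoxide hydrolase of detoxification, rose to 3.78 ± 1.77 CPM in RAG2KO, against 0.680 ± 0.0306 in naive (2.47, adjusted p = 0.00677). Gpx1, a glutathione peroxidase, rose by 0.79 (adjusted p = 0.00705), and Fdxr, a mitochondrial reductase, fell by 0.85 (adjusted p = 0.00604).

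Between recipients, 3 of the 41 were higher and 5 lower in C57Bl6 than in RAG2KO (median -0.11), 19.5% against 24% of all tested genes. In all 5 were called without C57Bl6 replicate 3 or RAG2KO replicate 3. Over all tested genes 1857 and 2018 were called there, against 3295 with all libraries. Gtse1, which restrains p53 in the G2 phase, was higher by 1.003 (adjusted p = 0.00923), and Sesn1, a stress-induced sestrin, was at -0.87 (adjusted p = 0.0141). In the constitutive line 2 rose and 3 fell (median -0.03), 12.2% against 12.3% of all tested genes, with 8 called by DESeq2 and 10 by limma voom. By edgeR, the share of the wider targets called was thus at or below that of all genes in each of these comparisons. By DESeq2 and limma voom it was below in RAG2KO and between recipients, and above in C57Bl6 and the constitutive line. In the constitutive line these methods called 2455 and 3184 of all 13720 tested genes. With the SOX17OE lines averaged, edgeR called 4 higher and 4 lower than in naive, 19.5% of the list against 12.7% of all tested genes. Sulf2 stood at 1.38 CPM in the constitutive line, against 37.8 ± 5.62 in naive (-4.77, SE 0.57, adjusted p = 0.00151), the opposite direction to C57Bl6. Ephx1 (3.69, adjusted p = 0.00591) and Btg2, an antiproliferative gene (1.61, adjusted p = 0.00868), rose in the constitutive line. The inducible line called 0 of 41 by edgeR, against 0.656% of all tested genes, with 11 at an unadjusted p under 0.05, 2 by DESeq2 and 0 by limma voom. With the Rn45s covariate 2 of the wider targets were called in C57Bl6, 0 in RAG2KO and 1 in the constitutive line against naive, and 0 between recipients. Of all 13720 tested genes that covariate called 1468 in C57Bl6, 148 in RAG2KO and 195 in the constitutive line against naive, and 2 between recipients.

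**Figure D4:**
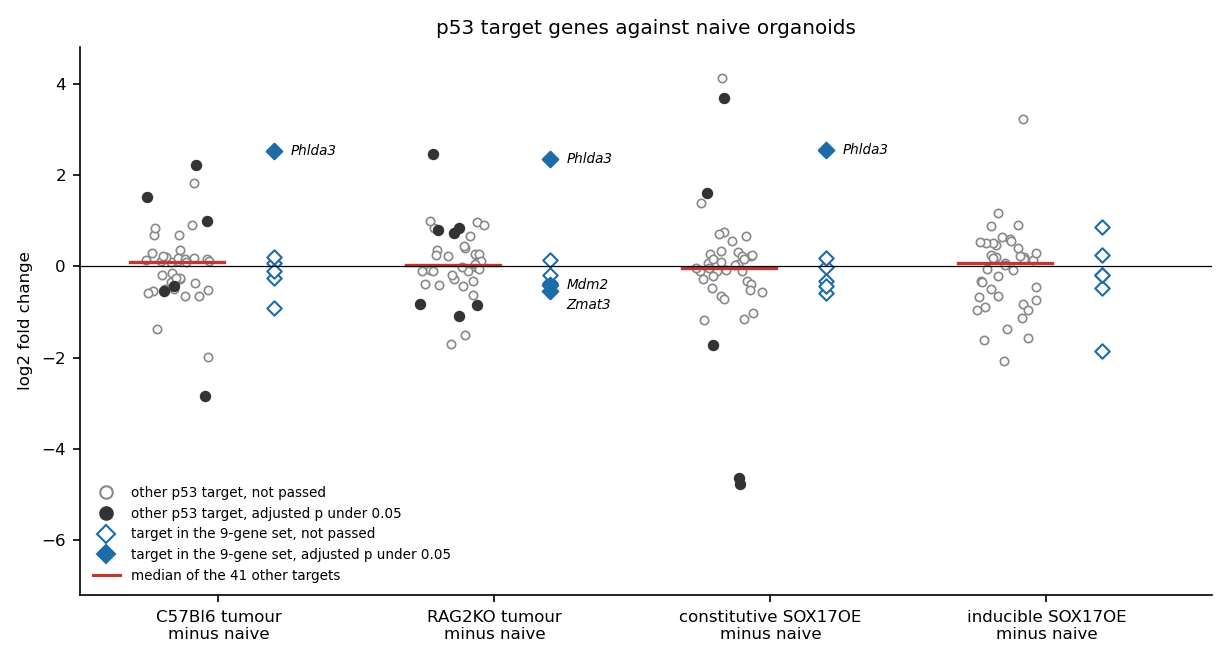
Log2 fold changes against naive of 41 other p53 targets (circles, median in red) and of the 6 tested targets of the 9-gene set (diamonds), filled at an adjusted p under 0.05. In every comparison the medians lie within 0.1 of 0 and called genes lie on both sides of it, except for the inducible line, where 0 were called.

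Of 25 regulators of p53, 2 rose and 2 fell in C57Bl6 and 1 rose and 10 fell in RAG2KO against naive. That is 16% of the list in C57Bl6, close to the 15.3% of all tested genes, and 44% in RAG2KO, above the 29.2% of all tested genes. Limma voom called 9 in C57Bl6, where it called 4086 of all 13720 tested genes. Cdkn2a, whose products are the cyclin-dependent kinase inhibitor INK4A and the Mdm2 antagonist ARF, had 289.3, 320.0 and 276.5 CPM in the C57Bl6, 314.4, 335.1 and 279.0 in the RAG2KO, 219.5 in the constitutive, 256.8 in the inducible and 141.2, 147.9 and 159.2 in the naive libraries. All 8 other libraries lay above every naive library. Cdkn2a rose by 0.98 in C57Bl6 (SE 0.12, adjusted p = 6.70e-04) and by 1.05 in RAG2KO (SE 0.12, adjusted p = 4.54e-04), and both calls held with the Rn45s covariate (adjusted p = 0.00255 and 0.0407). The table does not separate the INK4A and ARF transcripts. Atr, a kinase of the DNA damage response, fell by 0.79 in C57Bl6 (adjusted p = 0.00387) and by 0.88 in RAG2KO (adjusted p = 0.00181). Rchy1, a ubiquitin ligase of p53, fell by 0.71 in C57Bl6 (adjusted p = 0.0128), and Sirt1, a p53 deacetylase, fell by 0.72 in RAG2KO (adjusted p = 0.0126). Without naive replicate 2 or 3 or RAG2KO replicate 2 or 3, RAG2KO calls over all tested genes fell from 4010 to between 2041 and 3312. The RAG2KO count of regulators was then 3 to 6. It was 1 with the Rn45s covariate, which called 148 of all 13720 tested genes there. Between recipients 5 regulators were higher and 0 lower in C57Bl6 (20%, against 24% of all tested genes). DESeq2 called 9 of them, and 3970 of all 13720 tested genes. The count was 0 to 3 without C57Bl6 replicate 1 or 3, naive replicate 2 or any RAG2KO library. Over all tested genes 1857 to 2846 were called there, against 3295 with all libraries. The constitutive line called 0 of the regulators by edgeR, against 12.3% of all tested genes. For that line 4 had an unadjusted p under 0.05, 2 each passed by DESeq2 and limma voom, and 1 passed without C57Bl6 replicate 2.

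Among 9 CDK inhibitors and RB family genes, Cdkn2a rose and Rb1, the retinoblastoma gene, fell in both tumour groups. Rb1 averaged 11.8 ± 3.14 CPM in C57Bl6 and 9.18 ± 1.96 in RAG2KO, against 27.9 ± 6.47 in naive (SD, n = 3 each), at -1.24 (adjusted p = 0.00914) and -1.60 (adjusted p = 0.00212). Those were the 2 called in C57Bl6, and RAG2KO had 4 called, 1 higher and 3 lower, which is 22.2% and 44.4% of so short a list beside 15.3% and 29.2% of all tested genes. Without naive replicate 2 or RAG2KO replicate 2, RAG2KO calls over all tested genes fell from 4010 to 2041 and 2466. The RAG2KO count of the list was then 2. It was 1, Cdkn2a, with the Rn45s covariate, which called 148 of all 13720 tested genes there. Between recipients 0 of the 9 were called by edgeR, against 24% of all tested genes. Of the 9, 2 had an unadjusted p under 0.05, 0 passed by DESeq2 and 1 by limma voom, and 1 was called without C57Bl6 replicate 2 or RAG2KO replicate 1. Of all 13720 tested genes DESeq2 called 3970 and limma voom 3449 between recipients. The constitutive line also called 0 by edgeR, against 12.3% of all tested genes, with 2 at an unadjusted p under 0.05. For that line 1 each passed by DESeq2 and limma voom, and 1 was called without C57Bl6 replicate 2.

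Of the 20 tested genes of the BCL2 family and apoptosome, which carry out mitochondrial apoptosis with Bax, 4 rose and 1 fell in C57Bl6 and 5 rose and 0 fell in RAG2KO against naive. That is 25% in both, above the 15.3% of all tested genes in C57Bl6 and below the 29.2% in RAG2KO. Both counts were 3 in all with the least favourable library left out, naive replicate 1 or 2 for C57Bl6 and naive replicate 2 or RAG2KO replicate 1 or 2 for RAG2KO. Calls over all tested genes fell there too, from 2106 to 1096 and 1030 in C57Bl6. In RAG2KO they fell from 4010 to 2041, 3594 and 2466. Bcl2l11, which encodes the BH3-only protein BIM, rose by 1.08 in C57Bl6 (adjusted p = 0.00609), 0.98 in RAG2KO (adjusted p = 0.00663) and 1.37 in the constitutive line (adjusted p = 0.0106). It was the 1 gene of the list called in that line (5%, against 12.3% of all tested genes). There 2 were called without C57Bl6 replicate 2 or 3, by DESeq2 or by limma voom. Bid, another BH3-only gene, rose by 1.07 in C57Bl6 (adjusted p = 0.00605). Bik and Bad, also BH3-only genes, rose in RAG2KO by 2.93 (adjusted p = 6.15e-04) and 0.67 (adjusted p = 0.00758). Between recipients 1 was higher and 3 were lower in C57Bl6 (20%, against 24% of all tested genes), with 2 called without C57Bl6 replicate 2 or RAG2KO replicate 1 or 2. Over all tested genes 2912, 2846 and 2232 were called there, against 3295 with all libraries. Among the 3 genes lower in C57Bl6 was Bik (-1.60, adjusted p = 0.00937). With the Rn45s covariate 4 were called in C57Bl6 and 0 in RAG2KO, between recipients or in the constitutive line. Of all 13720 tested genes it called 1468, 148, 2 and 195 in that order.

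The 25 cell cycle genes that the DREAM complex represses when p21 is high had 0 called in C57Bl6 against naive by edgeR, against 15.3% of all tested genes. Of the 25, 4 had an unadjusted p under 0.05, 2 each passed by DESeq2 and limma voom, and 1 was called without C57Bl6 replicate 1 or RAG2KO replicate 1. DESeq2 and limma voom called 2751 and 4086 of all 13720 tested genes there. In RAG2KO 15 fell and 0 rose against naive (median -0.71), 60% of the list against 13.3% of all tested genes lower. Mki67, the proliferation antigen, averaged 235.2 ± 57.3 CPM in RAG2KO and 548.8 ± 16.8 in naive (-1.22, SE 0.18, adjusted p = 0.00154), and the factor Mybl2 stood at -1.37 (adjusted p = 0.00123). Between recipients 14 were higher and 0 lower in C57Bl6 (median 0.58), 56% against 12.2% of all tested genes higher. Foxm1, a mitotic transcription factor, was at 1.34 (adjusted p = 0.002). Without C57Bl6 replicate 3 and RAG2KO replicate 3, 7 and 9 were called. Over all tested genes 1857 and 2018 were called there, against 3295 with all libraries. In the constitutive line 11 fell and 0 rose (median -0.75), 44% against 5.04% of all tested genes lower, with 4 to 5 called without any of the naive libraries. With all libraries Cdkn1a itself did not pass by edgeR in these comparisons, and the C57Bl6 settings in which it passed are given above with that gene. With the Rn45s covariate 0 of the 25 were called in each of these comparisons. Of all 13720 tested genes it called 1468 in C57Bl6, 148 in RAG2KO and 195 in the constitutive line against naive, and 2 between recipients. The loss of calls in RAG2KO, between recipients and in the constitutive line was thus not particular to this list.

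Of 17 tested partners of Apc around the beta-catenin destruction complex, 2 rose and 1 fell in C57Bl6 and 3 rose and 2 fell in RAG2KO against naive. These are 17.6% and 29.4% of the list, close to the 15.3% and 29.2% of all tested genes. Ctnnb1, beta-catenin itself, averaged 1222 ± 105.3 CPM in RAG2KO and 764.0 ± 21.0 in naive (0.68, SE 0.12, adjusted p = 0.00382). Csnk1e, a casein kinase, rose by 0.69 (adjusted p = 0.00351) and Ppp2r5a, a phosphatase subunit, fell by 0.54 in RAG2KO (adjusted p = 0.00942). The C57Bl6 count was 0 or 1 without any naive library, C57Bl6 replicate 3 or RAG2KO replicate 1, and the RAG2KO count 3 without naive replicate 2 or RAG2KO replicate 2. Over all tested genes 1030 to 2065 were called there in C57Bl6, against 2106 with all libraries. In RAG2KO 2041 and 2466 were called, against 4010. Between recipients 3 were higher and 0 lower in C57Bl6 (17.6%, against 24% of all tested genes), with 0 or 1 called without naive replicate 1 or 2, C57Bl6 replicate 1 or 3 or any RAG2KO library. Over all tested genes 1857 to 2908 were called there, against 3295 with all libraries. The constitutive line called 1, lower (5.88%, against 12.3% of all tested genes), and 0 without naive replicate 2 or 3, C57Bl6 replicate 3 or RAG2KO replicate 3. With the Rn45s covariate 2 were called in C57Bl6 and 0 in RAG2KO, between recipients or in the constitutive line. Of all 13720 tested genes it called 1468, 148, 2 and 195 in that order.

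Of 11 tested paralogs of the 9 genes, 1 rose in C57Bl6, and 2 rose and 3 fell in RAG2KO against naive. That is 9.09% and 45.5% of the list, beside 15.3% and 29.2% of all tested genes. The C57Bl6 count was 3 by DESeq2 and 5 by limma voom, where 2751 and 4086 of all 13720 tested genes were called. Phlda2, the closest relative of Phlda3 on the list, did not follow it: it averaged 23.9 ± 2.82 CPM in RAG2KO and 42.8 ± 5.78 in naive (-0.84, SE 0.15, adjusted p = 0.0036). Phlda2 fell by 1.25 in the constitutive line (adjusted p = 0.00837), the 1 paralog called there (9.09%, against 12.3% of all tested genes). It was higher in C57Bl6 than in RAG2KO by 0.68 (adjusted p = 0.0121). Tnfrsf19, a receptor related to Eda2r, rose in C57Bl6 by 1.56 (adjusted p = 0.00118) and was higher there than in RAG2KO by 0.97 (adjusted p = 0.0106). The count of paralogs called was 2 or 3 in C57Bl6 without naive replicate 3, C57Bl6 replicate 1 or RAG2KO replicate 1, and in RAG2KO it was 1 to 3 without any naive library, C57Bl6 replicate 3 or RAG2KO replicate 1 or 2. Over all tested genes 1462, 1950 and 2065 were called there in C57Bl6, against 2106 with all libraries. In RAG2KO 2041 to 3676 were called, against 4010. Between recipients 3 paralogs were higher and 1 lower in C57Bl6 (36.4%, against 24% of all tested genes), with 2 called without RAG2KO replicate 1 or 2. Over all tested genes 2846 and 2232 were called there, against 3295 with all libraries. With the Rn45s covariate 1 was called in C57Bl6 and 0 in RAG2KO, between recipients or in the constitutive line. Of all 13720 tested genes it called 1468, 148, 2 and 195 in that order. In the inducible line 0 genes of the lists on p53, the cell cycle, apoptosis, beta-catenin and the paralogs were called by edgeR, against 0.656% of all tested genes. In that line 1 to 11 genes a list had an unadjusted p under 0.05, 0 to 2 passed by DESeq2 and 0 to 1 by limma voom.

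The genes with the most similar profile over the 11 libraries were named by the root mean square difference of centred log2 CPM. For Apc they were Papd7 (0.0821), Taok1 (0.0845) and Chd1 (0.0920), where the spread of Apc itself was 0.280. For Cdkn1a they were Prnp (0.317), 2010109K11Rik (0.331) and Ccng2 (0.333), against a spread of 0.673. For Trp53 they were Foxl2os (0.156), Stk19 (0.170) and Epcam (0.175), against a spread of 0.257, at the few counts given above. These are descriptions over libraries that share groups.

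In the GENCODE M21 annotation (GRCm38), Apc overlaps the pseudogene Gm10548 and Cdkn1a a transcript of unknown coding status, both on the opposite strand, and Bax overlaps the coding gene Gm45808 on the same strand. Reads of such pairs may be counted for either gene. The authors' mapping used mm9, whose coordinates are not given here.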

How the data were processed

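The deposited table holds expected counts per gene name, made with Bowtie and RSEM on mm9 per the submitters' processing notes, with versions and annotation not given in the sources used here. Libraries were poly(A)-selected with a directional kit, per the labels' protocols, and whether counting used strand is not stated. Totals were 14109182 to 22154456. Expected counts were rounded to whole numbers, filtered by group with filterByExpr (13720 of 23224 genes kept, 8 of the 9 members) and scaled by TMM. The robust quasi-likelihood fit (edgeR 4.0.16, R 4.3.3) took in all 11 libraries as 5 groups. The biological coefficient of variation was 25.3%, with 6 residual degrees of freedom. Tests were two-sided, and genes were called where the Benjamini-Hochberg adjusted p was under 0.05 over all tested genes. Nothing in the sources used here says that replicates came from separate cultures or mice, so p-values reflect only how far these samples spread.

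The members and the 11 lists (199 entries) were chosen with earlier results of these data known. The rule names all members and up to 4 called genes per list and comparison. The text gives only those whose call held with each library left out, a choice made after results were seen, except a few that are not reported here, and Rn45s and Sox17 are named outside the rule. Alternatives were DESeq2 size factors, upper quartile scaling, no filter, library totals, a minimum of 1 CPM in 3 libraries, DESeq2 1.42.0, limma 3.58.1 voom, a non-robust fit, only the groups compared, a replicate block and each library left out. The Rn45s covariate, the comparison of the lines with each other, the lists under all alternatives and the chromosome medians (12191 tested genes placed by name on GRCm38) were added after seeing the data. RefSeq promoter windows were searched in Python 3.11.15. The fit was tested on simulated data.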

Additional observations from a re-analysis of the deposited data

Results flagged for a closer look

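Zmat3 was flagged because its effect differed between the recipients. The C57Bl6 libraries lay above and the RAG2KO libraries below every naive library, and the test of the difference itself, C57Bl6 minus RAG2KO, gave 0.74 on the log2 scale (SE 0.16, edgeR adjusted p = 0.012). The Rn45s share differed between these groups as well, at 2.21 to 3.77% in C57Bl6 and 6.56 to 8.54% in RAG2KO, and its part in the difference cannot be told apart from the group.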

How the results depend on the processing

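Genes called with single libraries left out ranged from 1030 to 2328 in C57Bl6 against naive, 2041 to 4184 in RAG2KO against naive, 1857 to 3311 in C57Bl6 against RAG2KO, 85 to 1931 for the mean of the SOX17OE lines, 721 to 1900 for the constitutive line, 12 to 147 for the inducible line and 17 to 80 between the lines. Members called ranged from 1 to 2, 1 to 4, 1 to 2, 0 to 1, 1 to 1, 0 to 0 and 0 to 0 in the same order. In RAG2KO against naive, the 4 members called became 2 with DESeq2 size factors, no filter, 1 CPM in 3 libraries or only the groups compared, and 1 with upper quartile scaling. In C57Bl6 against RAG2KO, 2 members were called with upper quartile scaling, library totals, DESeq2 or limma voom. Upper quartile scaling moved the share of higher genes among those called there to 36.3% and library totals to 63.7%, against 50.9% with TMM. DESeq2 called 2672 genes and 2 members for the mean of the lines, 730 and 1 for the inducible line and 327 and 1 between the lines. Limma voom called 4086 genes and 2 members in C57Bl6 against naive, 3825 genes for the mean of the lines, 3184 for the constitutive line, 733 for the inducible line and 86 between the lines. With only the groups compared, the mean of the lines called 864 genes and 0 members. With the Rn45s covariate, genes called were 1468 in C57Bl6 against naive, 148 in RAG2KO against naive, 2 between recipients, 267 for the mean of the lines, 195 for the constitutive line, 34 for the inducible line and 16 between the lines, and members called were 1 in C57Bl6 against naive and 0 in the others. The causes were not tested.

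Replicate numbers did not pair the samples: correlations of same-numbered deviations ran from -0.192 to 0.181. With a replicate block, 1737 genes and 1 member were called in C57Bl6 against naive, 3453 and 1 in RAG2KO against naive and 2688 and 1 between recipients.

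These uncalled values changed sign. Mdm2 in the constitutive line was 0.055 with upper quartile scaling, 0.0034 with 1 CPM in 3 libraries, 0.037 with limma voom and 0.28 with the Rn45s covariate, and ran from -0.062 to 0.069 with single libraries left out. Mdm2 between recipients was -0.29 with the Rn45s covariate. Apc in C57Bl6 was 0.00786 with limma voom and 0.022 with the Rn45s covariate, and ran from -0.22 to 0.16 with single libraries left out. Ccng1 in C57Bl6 was -0.056 with limma voom and ran from -0.051 to 0.17. Between the lines, Apc was -0.12 and Trp53 0.12 with the Rn45s covariate. With single libraries left out, Trp53 ran from -0.051 to 0.14 in the constitutive line and from -0.18 to 0.032 in C57Bl6, and Phlda3 between recipients from -0.014 to 0.53. Depth limits Eda2r, at 0 to 5 counts, and Trp53, at 29 to 65 counts.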
